A study of Mus musculus with 8 samples.

Results

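B cell follicle genes and the CXCL13 axis were described as 9 genes: the chemokine Cxcl13, the chemokine receptors Cxcr5, Ccr6 and Ccr7, and the B cell genes Ms4a1, Cr2, Cd22, Cd79a and Cd79b. The platform annotation assigned 12 probe sets of 45101 to exactly 1 of these genes, which stand among 18193 genes on the array. The genes had been selected on measured values, since their high signal in small-intestinal tumours was known from earlier results of these data. All comparisons between small-intestinal tumours and other samples are therefore given as a description of these genes, without a test.

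Gene expression was measured on 8 Affymetrix arrays from C57BL/6 mice aged 110 days, 4 from each of the 2 tissues. Tumours came from ACKR2-/-ApcMin/+ and ApcMin/+ mice, and tissue without tumours came from ACKR2-/- and WT mice, which lack the ApcMin allele. ApcMin/+ mice are heterozygous for a truncating mutation of Apc, a tumour suppressor, and form intestinal adenomas. ACKR2, named D6 in the study's title, is a scavenging receptor for inflammatory CC chemokines. RNA was pooled per genotype and tissue, so each of the 8 groups had 1 array, and the number of animals in a pool was not given in the sources used here. The labels name the ileum for the small-intestinal tumours and give no segment for the small intestine without tumours.

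In lymphoid follicles, CXCL13 is made by follicular dendritic cells and related stroma, and it attracts B cells that carry CXCR5. CCR6 binds CCL20 from the epithelium over gut follicles, and CCR7 binds CCL19 and CCL21 of the T cell zone. The small intestine holds Peyer's patches, and both small intestine and colon hold smaller isolated follicles. In bulk RNA, fewer cells of a type and less RNA per cell cannot be told apart.

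RefSeq promoters (GRCm38.p6, 250 bases before to 50 after the start) were given for 5 of the 9 genes, as 6 promoters. Those of the ligand Cxcl13, of the receptor Ccr6 and of the B cell receptor chain Cd79a are shown because they stand for the 3 roles among the genes. They lie at chr5:95956689-95956988, chr17:8235793-8236092 and chr7:24897247-24897546, all on the plus strand, and run 5′ to 3′. Capitals mark matches to a TATA box (TATAAA), to the octamer of immunoglobulin promoters (ATGCAAAT, found here as its reverse complement ATTTGCAT) and to an Ets core (GGAAGT, or ACTTCC on the other strand).
Cxcl13: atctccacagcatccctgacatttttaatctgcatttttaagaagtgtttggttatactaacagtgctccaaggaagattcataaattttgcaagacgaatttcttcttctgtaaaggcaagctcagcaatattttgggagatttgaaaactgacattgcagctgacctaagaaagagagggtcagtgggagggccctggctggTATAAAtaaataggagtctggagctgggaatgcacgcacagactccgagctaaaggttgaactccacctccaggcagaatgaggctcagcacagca
Ccr6: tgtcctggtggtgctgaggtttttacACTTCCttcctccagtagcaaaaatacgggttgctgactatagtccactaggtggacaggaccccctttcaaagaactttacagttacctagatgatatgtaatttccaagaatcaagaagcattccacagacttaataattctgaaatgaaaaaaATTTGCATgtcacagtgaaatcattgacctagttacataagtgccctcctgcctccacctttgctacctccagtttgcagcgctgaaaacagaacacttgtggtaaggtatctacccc
Cd79a: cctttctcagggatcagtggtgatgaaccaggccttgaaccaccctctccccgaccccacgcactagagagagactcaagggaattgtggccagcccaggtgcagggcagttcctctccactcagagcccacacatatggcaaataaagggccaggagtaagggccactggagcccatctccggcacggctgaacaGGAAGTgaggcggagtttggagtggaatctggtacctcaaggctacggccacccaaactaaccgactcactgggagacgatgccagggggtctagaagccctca
Cxcl13 held the TATA box at -46 from its start, Ccr6 the octamer at -68 and an Ets core at -224, and Cd79a an Ets core at -54. With both strands searched, and with no overlap between the motifs shown, the octamer was in 1 of the 6 promoters, the TATA box in 1 and the Ets core in 3. Among all 32851 RefSeq promoters of this length the shares were 1.74%, 13.6% and 23.8%. These matches are a description of the letters in this window.

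Signal was in MAS5 intensity units on a linear scale. Signal below 64.1 was set to that floor before log2 was taken, so a difference from a value at the floor is a lower limit. Of the 9 genes, 4 exceeded the floor in 8 arrays, 2 in 7 arrays, Cxcr5 and Cr2 in 4 arrays, and Ccr7 in the 2 small-intestinal tumour arrays. The last 3 passed the filter of 2 arrays with few arrays beyond those in which they were high. All 9 were among the 14023 genes tested. Median array signal ran from 85.5 to 133.1, the Actb 3′ to 5′ ratio from 1.13 to 1.39, and the Ackr2 signal from 71.3 to 153. It is not known whether the Ackr2 probe set lies in the deleted part, so its signal does not check the genotypes. With 1 array per group, a standard error (SE) rests on the gap between tissues in the ACKR2 effect, so animal-to-animal variation is not in it. Precision is limited by this number of arrays.

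Cxcl13 (chr5:95956939-95961068), the ligand, had a signal of 3626 in ACKR2-/-ApcMin/+ and 2841 in ApcMin/+ small-intestinal tumours, against 233 in ACKR2-/- and 362 in WT small intestine. In colon its signal was 577 in ACKR2-/-ApcMin/+ and 430 in ApcMin/+ tumours, against 701 in ACKR2-/- and 798 in WT colon. Both small-intestinal tumours thus lay above all other arrays, while small intestine without tumours had the lowest signal. The small-intestinal difference was 15.6-fold between the ACKR2-deficient arrays and 7.86-fold between the ACKR2-intact arrays. A second Cxcl13 probe set gave 2774 and 1775 in the same tumours and between 285 and 467 in the other 6 arrays.

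Cxcr5 (chr9:44511787-44526444), the receptor of CXCL13, had a signal of 352 in ACKR2-/-ApcMin/+ and 312 in ApcMin/+ small-intestinal tumours, against 48.6 in ACKR2-/- and 71.0 in WT small intestine. Its colon signal was 9.87 in ACKR2-/-ApcMin/+ and 32.7 in ApcMin/+ tumours, against 32.2 in ACKR2-/- and 79.9 in WT colon. Apart from the small-intestinal tumours, only the WT arrays exceeded the floor. The small-intestinal difference was at least 5.48-fold between the ACKR2-deficient arrays and 4.39-fold between the ACKR2-intact arrays.

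Ccr6 (chr17:8236041-8258519), the receptor of CCL20, had a signal of 876 in ACKR2-/-ApcMin/+ and 701 in ApcMin/+ small-intestinal tumours, against 78.6 in ACKR2-/- and 157 in WT small intestine. Colon signal was 116 in ACKR2-/-ApcMin/+ and 109 in ApcMin/+ tumours, against 95.7 in ACKR2-/- and 239 in WT colon. The small-intestinal tumour arrays were 11.1-fold and 4.47-fold higher than their counterparts without tumours. Ccr7 (chr11:99144199-99155077), which guides T cells, dendritic cells and B cells towards the T cell zone, was at 112 in ACKR2-/-ApcMin/+ and 130 in ApcMin/+ small-intestinal tumours, against 4.0 in ACKR2-/- and 45.3 in WT small intestine. In colon it was at 51.5 in ACKR2-/-ApcMin/+ and 46.4 in ApcMin/+ tumours, against 30.1 in ACKR2-/- and 30.6 in WT colon. Its small-intestinal differences were at least 1.75-fold and at least 2.03-fold, both against arrays at the floor.

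Ms4a1 (chr19:11249679-11266149), which encodes the B cell surface protein CD20, had a signal of 5389 in ACKR2-/-ApcMin/+ and 2549 in ApcMin/+ small-intestinal tumours, against 73.9 in ACKR2-/- and 311 in WT small intestine. In colon it was at 84.5 in ACKR2-/-ApcMin/+ and 58.5 in ApcMin/+ tumours, against 161 in ACKR2-/- and 313 in WT colon. The small-intestinal differences of 72.9-fold and 8.19-fold were the largest of the 9 genes in each pair. A second Ms4a1 probe set gave 1129 and 522 in small-intestinal tumours and between 5.04 and 72.4 elsewhere.

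Cr2 (chr1:195136811-195176880), the complement receptor CD21 of mature B cells and follicular dendritic cells, had a signal of 869 in ACKR2-/-ApcMin/+ and 630 in ApcMin/+ small-intestinal tumours, against 15.0 in ACKR2-/- and 78.9 in WT small intestine. In colon it was at 26.6 in ACKR2-/-ApcMin/+ and 37.5 in ApcMin/+ tumours, against 12.3 in ACKR2-/- and 120 in WT colon. As with Cxcr5, the WT arrays alone exceeded the floor outside the small-intestinal tumours. The small-intestinal differences were at least 13.5-fold and 7.98-fold.

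Cd22 (chr7:30865404-30880342), an inhibitory co-receptor of B cells, was at 1166 in ACKR2-/-ApcMin/+ and 1272 in ApcMin/+ small-intestinal tumours, against 65.7 in ACKR2-/- and 263 in WT small intestine. In colon it was at 80.6 in ACKR2-/-ApcMin/+ and 165 in ApcMin/+ tumours, against 83.8 in ACKR2-/- and 306 in WT colon. Its small-intestinal differences were 17.7-fold and 4.83-fold. A second Cd22 probe set gave 197 and 339 in small-intestinal tumours and between 9.43 and 52.2 in the other arrays.

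Cd79a (chr7:24897497-24901858) and Cd79b (chr11:106311341-106314562) encode the signalling chains of the B cell receptor. Cd79a was at 1564 in ACKR2-/-ApcMin/+ and 1245 in ApcMin/+ small-intestinal tumours, against 109 in ACKR2-/- and 449 in WT small intestine. In colon Cd79a was at 72.1 in ACKR2-/-ApcMin/+ and 129 in ApcMin/+ tumours, against 29.2 in ACKR2-/- and 381 in WT colon. Its small-intestinal differences were 14.4-fold between the ACKR2-deficient arrays and 2.77-fold between the ACKR2-intact arrays. Cd79b was at 1963 in ACKR2-/-ApcMin/+ and 1183 in ApcMin/+ small-intestinal tumours, against 105 in ACKR2-/- and 283 in WT small intestine. In colon Cd79b was at 83.3 in ACKR2-/-ApcMin/+ and 135 in ApcMin/+ tumours, against 96.2 in ACKR2-/- and 329 in WT colon. The small-intestinal differences of Cd79b were 18.7-fold and 4.18-fold.

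**Figure D1:**
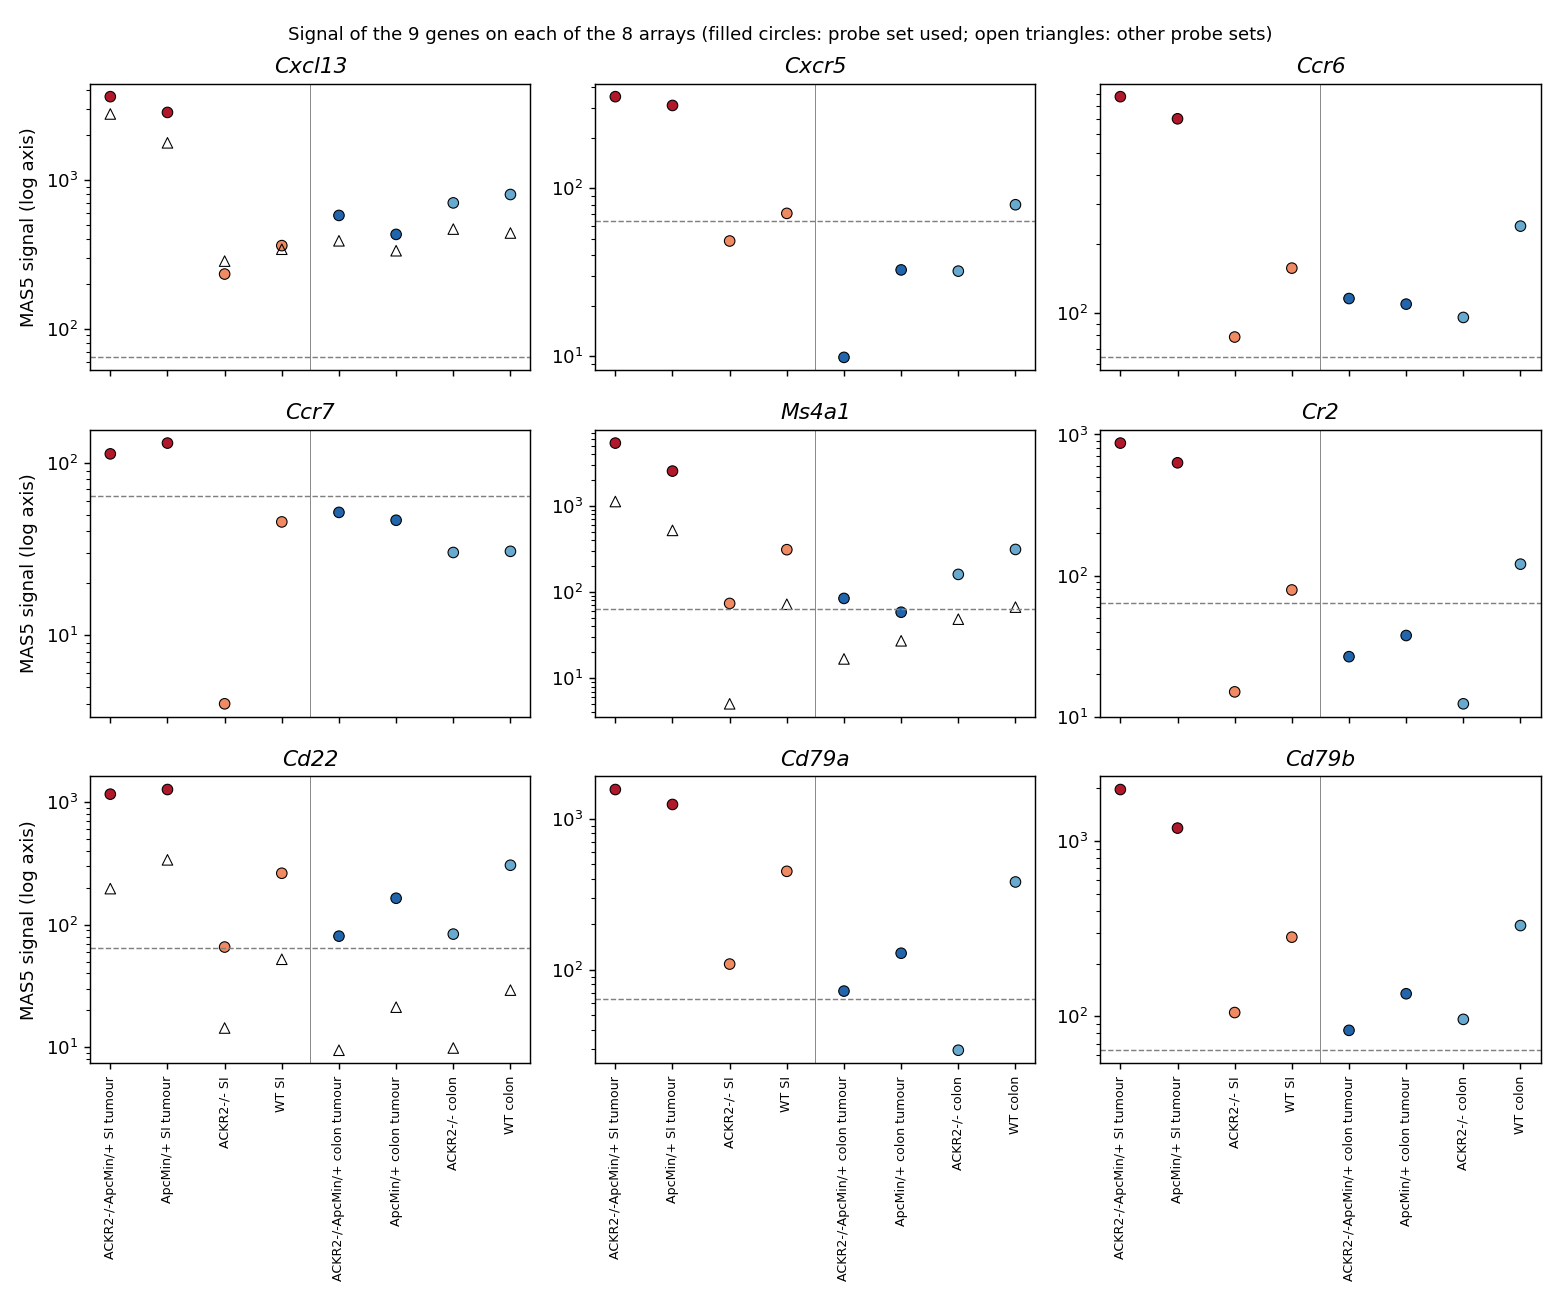
MAS5 signal (log axis, 1 panel with its own axis range per gene) of the 9 genes on each of the 8 arrays, with filled points for the probe set used, open triangles for other probe sets and a dashed line at the floor of 64.1. Both small-intestinal tumour arrays stand above the other 6 arrays in every panel.

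For 9 of 9 genes and 12 of 12 probe sets the small-intestinal tumours held the highest signals of the 8 arrays, with no overlap. The lower small-intestinal tumour exceeded the highest of the other 6 arrays by at least 1.75-fold for Ccr7, where those 6 arrays were below the floor, and by 2.77-fold for Cd79a to 8.14-fold for Ms4a1 among the rest. For 7 of 9 genes, all but Cxcl13 and Ccr7, the next highest signals were those of the WT arrays. The share of all genes with either order of arrays was not counted. In small-intestinal tumours 8 of the 9 genes, all but Ccr7, were at least 2-fold higher in both pairs, against 3.14% of all genes. The median log2 difference of the 9 genes was 3.14, with 3.84 between the ACKR2-deficient arrays and 2.16 between the ACKR2-intact arrays, while the median of all genes was 0.04. These values lie in the comparison on which the genes were chosen, and no test is read from them.

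Small-intestinal minus colon tumours gave a similar description. Its arrays of small-intestinal tumours are shared with the comparison above. All 9 genes were higher in small-intestinal tumours in both genotypes, 8 of them at least 2-fold, against 4.93% of all genes, and their median log2 difference was 3.40. The log2 difference was 5.65 for Ms4a1, a lower limit because ApcMin/+ colon tumours were at the floor, 3.86 for Cd79a and 3.85 for Cd79b. It was 2.69 for Cxcl13 and 0.91, again a lower limit, for Ccr7. Without tumours, small intestine minus colon gave a median log2 difference of -0.28 for the 9 genes. Cxcl13 was lower in small intestine, by -1.59 in ACKR2-/- and -1.14 in WT mice on the log2 scale, while its second probe set gave smaller differences of -0.72 and -0.36. The mean log2 differences of the other 8 genes lay between -0.57 for Ms4a1 and 0.50 for Cd79a.

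Colon tumours minus colon without tumours share no array with the small-intestinal tumour comparison, and the genes were tested there. The choice of genes was made with the colon arrays known. A choice of genes high in small-intestinal over colon tumours would favour low signal in colon tumours. These p-values are therefore not independent of the choice. The limma model across all genes called 1 of 9, Ms4a1, which fell by 1.61 on the log2 scale (SE 0.35, adjusted p = 0.0247) in colon tumours, with the ApcMin/+ colon tumour at the floor. Ccr7, at the floor in all 4 colon arrays, could not have been called. Of all genes, 12.6% were called lower and 11.0% higher in this comparison. With any 1 array left out the Ms4a1 estimate lay between -2.16 and -1.05, at limma adjusted p-values of 0.118 to 0.353, but these smaller fits called 0 of all genes. With the mean of both probe sets its estimate was -0.82 and it was not called, and the second probe set alone gave -0.03. Cxcl13 had a log2 difference of -0.59 (SE 0.19) with a limma adjusted p of 0.0768. The other 7 genes had estimates between -0.75 for Cd79b and 0 for Ccr7, with limma adjusted p-values of 0.205 or more. In ApcMin/+ colon tumours minus WT colon, 8 genes had a negative log2 difference, with a median over the 9 genes of -0.91. In ACKR2-/-ApcMin/+ colon tumours minus ACKR2-/- colon the median was 0. There Cxcr5, Ccr7 and Cr2 were at the floor in both arrays, so their differences were fixed at 0.

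**Figure D2:**
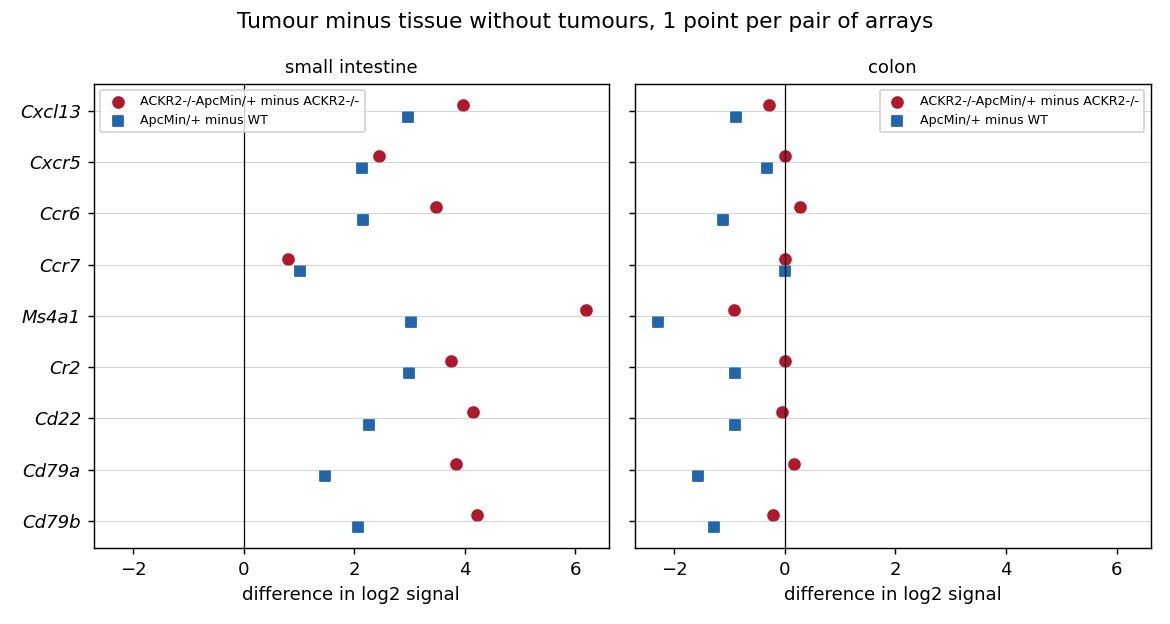
Log2 difference of tumour minus tissue without tumours for the 9 genes, small intestine on the left and colon on the right, with 1 point for each of the ACKR2-deficient and the ACKR2-intact pair. In small intestine all points are above 0, from 0.81 to 6.19, while in colon they lie between -2.29 and 0.27.

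ACKR2 loss was tested next, with 1 effect for both tissues. In ACKR2-/-ApcMin/+ minus ApcMin/+ tumours, limma called 0 of 9 genes, and 0 of 9 had an unadjusted p under 0.05. Cxcr5, Ccr7 and Cr2 were at the floor in both colon tumour arrays. Their colon difference was thus fixed at 0, which draws their shared estimate towards 0. Of all genes, 0.0357% were called and 15.6% had an unadjusted p under 0.05. The largest estimates on the log2 scale were 0.74 for Ms4a1 (SE 0.35, limma adjusted p = 0.376) and -0.58 for Cd22 (SE 0.30, limma adjusted p = 0.410). Cxcl13 had an estimate of 0.39 (SE 0.19, limma adjusted p = 0.391), with 0.35 in small-intestinal and 0.42 in colon tumours.

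Without tumours, the signal of the probe set used was lower in ACKR2-/- than in WT mice in both tissues for 9 of 9 genes, although the second Cxcl13 probe set was at 467 in ACKR2-/- and 439 in WT colon. After the floor, 8 of 9 differences were below 0 in both tissues, and Ccr7, at the floor in all 4 arrays, could not have been called. The share of all genes lower in both tissues was not counted, and the median array signal was also lower in both ACKR2-/- arrays. Limma called 0 of 9 genes at an adjusted p under 0.05, against 0.685% of all genes called. An unadjusted p under that value was reached by 5 of 9 genes and by 24.8% of all genes. Cd79a had a log2 difference of -2.31 (SE 0.35) and Cd22 one of -1.94 (SE 0.30), each with a limma adjusted p of 0.0516. For Cd79a the difference is a lower limit in size, because ACKR2-/- colon was at the floor. Cd79b was at -1.60 (SE 0.38, limma adjusted p = 0.0799), Ms4a1 at -1.52 (SE 0.35, limma adjusted p = 0.0783) and Ccr6 at -1.16 (SE 0.25, limma adjusted p = 0.0717). The second Ms4a1 probe set gave a mean of -0.12, and the second Cd22 probe set was at the floor in all 4 arrays. Cd22, Cd79a and Cd79b were at least 2-fold lower in both tissues, as were 2.28% of all genes. Cxcl13 had a smaller estimate of -0.41 (SE 0.19, limma adjusted p = 0.253).

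Several array properties moved with this comparison. Median signal was 85.5 in small intestine and 86.1 in colon of ACKR2-/- mice, against 118 and 133 in WT mice. The Actb 3′ to 5′ ratio was 1.28 and 1.31 in the ACKR2-/- arrays, against 1.14 and 1.17 in the WT arrays. Eif2s3y, a Y-linked gene, was at 919 and 897 in ACKR2-/- arrays, against 2.66 and 2.92 in WT arrays. Xist, which is expressed from the inactive X chromosome, was at 2818 and 4522 in ACKR2-/- arrays, against 7807 and 9809 in WT arrays. In ACKR2-/-ApcMin/+ tumours Xist was at 127 in small intestine and 77.9 in colon, against 4827 and 2954 in ApcMin/+ tumours. Eif2s3y was at 1252 and 1501 in ACKR2-/-ApcMin/+ tumours and at 914 and 888 in ApcMin/+ tumours. Both sex-linked genes thus also differed between ApcMin/+ tumours and WT tissue, and Xist between ACKR2-/-ApcMin/+ tumours and ACKR2-/- tissue. The Actb ratio was 1.32 and 1.39 in ACKR2-/-ApcMin/+ tumours, against 1.13 and 1.14 in ApcMin/+ tumours. Median signal was 103 and 96.3, against 128 and 115. The part of RNA quality, sex composition and scaling in the ACKR2 and tumour differences was not tested. With arrays centred on their medians, the median of all genes was 0.43 on the log2 scale in ACKR2-/- minus WT tissue. Cd22 was then at -1.39 and Cd79a at -1.94. Both passed the limma threshold, as did 3781 of the 14130 genes tested in that setting. Cxcl13 then had the opposite sign, at 0.14.

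**Figure D3:**
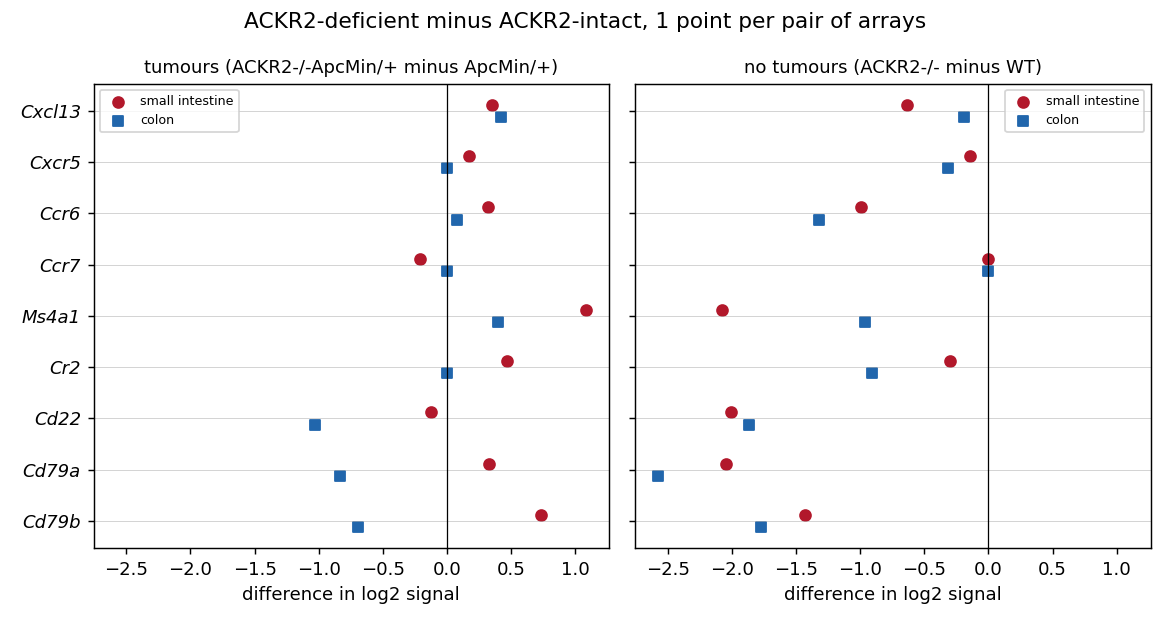
Log2 difference of ACKR2-deficient minus ACKR2-intact arrays for the 9 genes, tumours on the left and tissue without tumours on the right, with 1 point per tissue. Points in tumours lie on both sides of 0, from -1.03 to 1.08, while without tumours none is above 0 and Cd79a in colon is lowest, at -2.57. That point is a lower limit in size, because Cd79a was at the floor in ACKR2-/- colon.

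The ACKR2 effect in tumours minus that without tumours was added after the data were seen. Limma called 0 of 9 genes and 0.00713% of all genes. An unadjusted p under 0.05 was reached by 6 of 9 genes and by 8.07% of all genes. The difference of effects was 2.26 for Ms4a1 (SE 0.50, limma adjusted p = 0.549), 2.05 for Cd79a (SE 0.50, limma adjusted p = 0.556) and 0.80 for Cxcl13 (SE 0.27, limma adjusted p = 0.594).

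Genes of the surrounding cell types were counted from 12 lists that hold none of the 9 genes. The lists were chosen with earlier results of these arrays known, so their counts are not independent evidence of a direction. Of 25 other B cell genes tested, 20 rose and 0 fell in small-intestinal tumours, against 2.77% higher and 1.20% lower among all genes, and their median log2 difference was 1.85. Ly6d, a surface marker of B cell progenitors that some epithelia also express, rose by 4.22 (SE 0.23, limma adjusted p = 0.0025), and H2-Ob, a class II chain of B cells that restrains peptide loading, by 3.71 (SE 0.27, limma adjusted p = 0.00415). Fcmr, the Fc receptor for IgM, rose by 3.37 and Bank1, a B cell adaptor, by 3.29. The summed signal of the 25 genes was 22873 and 23071 in small-intestinal tumours, against 3184 in ACKR2-/- and 5730 in WT small intestine. The 5 genes that did not pass were Tnfrsf13b, Ebf1, Pax5, Pou2f2 and Ciita, with log2 differences between 0.49 and 1.73. Fcrla, which was called, and Pou2f2 exceeded the floor in the small-intestinal tumours alone and so entered the test through them, and of the other 23 genes 19 rose. With any 1 array left out, 0 of the 25 genes passed in either tumour comparison, as did 0 of all genes, although at least 1240 genes had an unadjusted p under 0.05 in small-intestinal tumours.

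Plasma cells secrete the antibody of the gut wall. Of 12 plasma cell and immunoglobulin genes tested, 1 rose in small-intestinal tumours, Ighm, the IgM heavy chain, by 3.69 on the log2 scale (SE 0.41, limma adjusted p = 0.0102). Its signal was 4235 and 3553 in small-intestinal tumours, against 118 in ACKR2-/- and 765 in WT small intestine. Jchain, which joins the units of secreted IgA and IgM, was at 18557 and 19001 in small-intestinal tumours, against 20437 in ACKR2-/- and 18848 in WT small intestine. Igha, the IgA heavy chain, was at 29322 and 27113 in the tumours, against 26476 and 34894 without tumours. The log2 differences of Jchain and Igha were -0.06 and -0.11. Irf4, a transcription factor of activated B cells and plasma cells, was at 1.33 and Mzb1, a chaperone of antibody-secreting cells, at 1.11, with positive values in both pairs, and none of these 4 genes passed the test. The summed signal of the 12 genes was 100029 and 91999 in small-intestinal tumours, against 97055 and 104380 in small intestine without tumours. Most of it came from Igha, Jchain, Pigr and Xbp1. Pigr was at 22028 and 15396 in the tumours, against 24818 and 26783 without tumours. Xbp1 was at 11944 and 11381, against 12831 and 12514. The sum thus says little about the lower genes of the list and is not a measure of plasma cell number.

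The counts of the next lists stand beside the same 2.77% of all genes higher and 1.20% lower. The germinal centre list also holds genes that are not particular to germinal centres, such as Gpr183, which positions B cells within follicles. Of its 9 genes 3 rose in small-intestinal tumours: Basp1 by 3.34, Gpr183 by 2.37 and Gcsam by at least 1.43. Gcsam exceeded the floor in the small-intestinal tumours alone, as did Mef2b, which was not called, and of the other 7 genes 2 rose. Also not called were Ebi3 at 1.42, S1pr2 at 1.22, Rgs13 at 1.16, Bcl6 at 0.84 and Fas at -0.40. Of 11 genes of stroma and follicular dendritic cells 3 rose, namely Clu, a secreted chaperone that follicular dendritic cells and epithelia make, by 4.90, Mfge8, which helps phagocytes take up apoptotic cells, by 1.79, and Madcam1, a vascular ligand for gut-homing lymphocytes, by 1.5. Ltb, a lymphotoxin chain needed to form follicles, rose by 2.52, alone among 7 genes of that pathway. Among 13 homing ligands and receptors Cxcr4, the receptor of CXCL12, rose by 2.93. Btla, an inhibitory receptor of lymphocytes, rose by 3.26 as the only 1 of 6 follicular helper T cell genes. Of 7 genes of dendritic and innate lymphoid cells, Cd83, which B cells and dendritic cells carry, rose by 2.23 and Flt3 by 1.20. Gp2, a receptor of M cells in the epithelium over follicles, rose by 2.49 with Marcksl1, Anxa5 and Ctsh, as 4 of 10 genes of that list.

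Of 11 T cell genes 2 rose in small-intestinal tumours, Cd2, an adhesion receptor, by at least 1.41 and Ptprc, the pan-leukocyte phosphatase CD45, by 1.20. Cd2 exceeded the floor in the small-intestinal tumours alone. Cd3d, a chain of the T cell receptor complex, was at 1070 and 541 in small-intestinal tumours, against 691 in ACKR2-/- and 356 in WT small intestine. Cd3e, another such chain, was at 264 and 249 in small-intestinal tumours, against 172 in ACKR2-/- and 314 in WT small intestine. Of 7 epithelial genes Krt18 rose by 0.87. Of 10 smooth muscle genes 7 fell in small-intestinal tumours, with a summed signal of 12570 in ACKR2-/-ApcMin/+ and 27173 in ApcMin/+ tumours, against 69977 in ACKR2-/- and 65271 in WT small intestine. In colon tumours 10 of 10 smooth muscle genes fell, and their summed signal was 9834 and 36200, against 116329 and 137523 in colon without tumours. The part of a different muscle content in the values of the 9 genes was not tested.

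**Figure D4:**
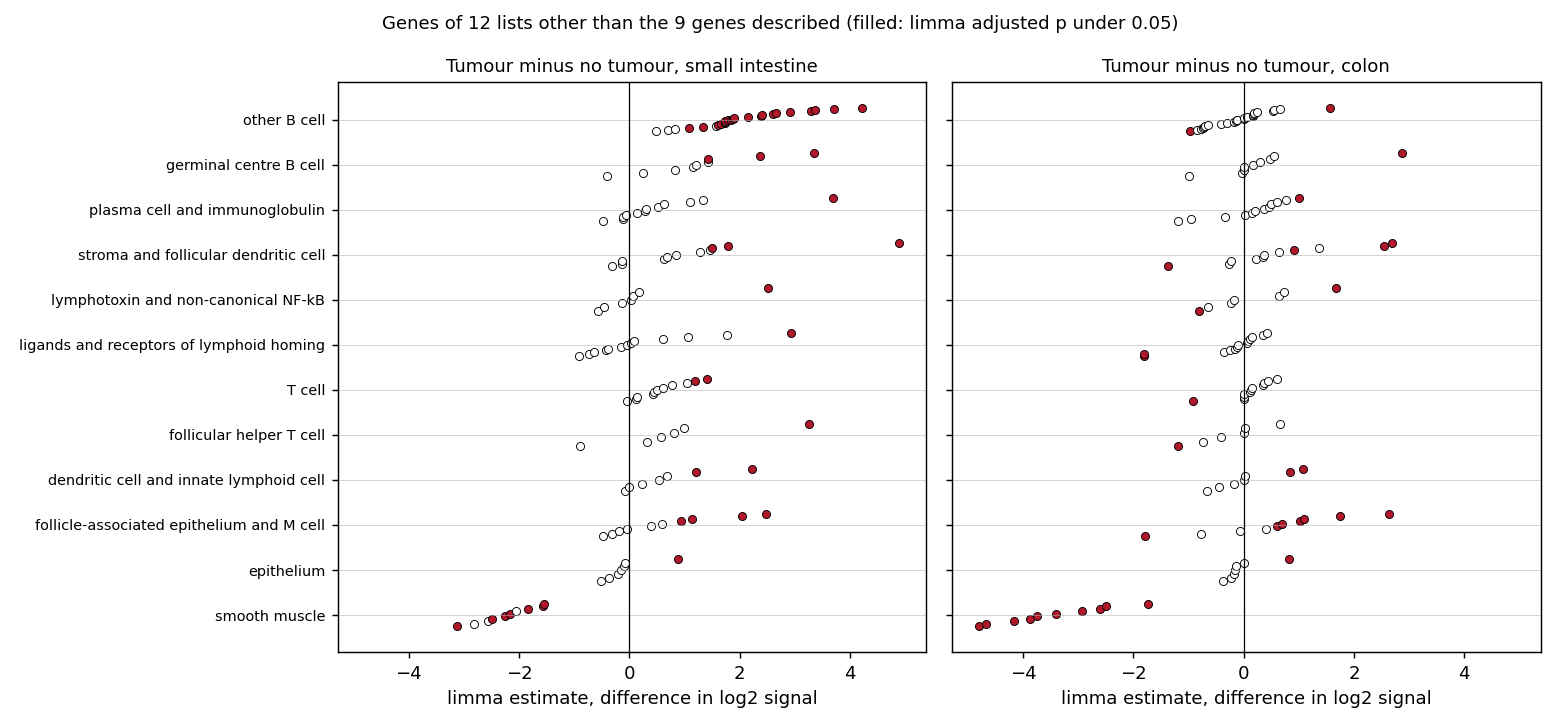
Log2 difference of tumour minus tissue without tumours for the genes of 12 lists in small intestine and colon, with filled points for genes at a limma adjusted p under 0.05. Of 25 other B cell genes, 20 are filled above 0 in small intestine and 1 in colon, while filled smooth muscle genes all lie below 0.

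In colon tumours 1 of the 25 other B cell genes rose and 1 fell, shares below the 11.0% of all genes that were higher and the 12.6% that were lower. Ly6d rose by 1.56 (SE 0.23, limma adjusted p = 0.00793) and Fcmr fell by 0.97 (SE 0.27, limma adjusted p = 0.0452) on the log2 scale. The median log2 difference of the 25 genes was -0.11. Their summed signal was 8053 and 10283 in colon tumours, against 7967 and 9892 in colon without tumours. Of these sums, Blnk alone gave 4182 and 6386 in colon tumours, against 5732 and 5696 without tumours. Ly6d gave 2119 and 1195, against 517 and 562. These 2 genes made up most of each sum, which thus says little about the other genes. Basp1 rose by 2.87, Clu by 2.68 and Madcam1 by 0.90 in colon tumours as well, while Cxcl12, a stromal chemokine of lymphoid organs, fell by 1.81. Of the 10 genes of follicle-associated epithelium and M cells 6 rose and 1 fell in colon tumours, beside those same shares of all genes.

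Between tumours, small intestine minus colon had 24 of 25 other B cell genes higher and 0 lower, against 7.36% and 5.76% of all genes. Fcmr differed by 4.01, H2-Ob by 3.87, Spib, a transcription factor of B cells and M cells, by 3.84 and Bank1 by 3.58. Of 11 T cell genes 9 were higher. Without tumours, 1 of 25 other B cell genes was higher in small intestine and 1 lower, Ciita by 1.86 and Blnk by -2.51, against 8.40% and 13.0% of all genes. Of the T cell genes 6 of 11 were higher in small intestine without tumours and 1 was lower. In both ACKR2 comparisons 0 of 25 other B cell genes were called.

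The genes whose log2 signal was most like Cxcl13 over the 8 arrays, by Pearson's r among 2855 genes that spanned at least 2 on that scale, were Cd83 (r = 0.97), Adgrg2 (0.96), Rasgrp3 (0.96), Srpk3 (0.95), Cxcr4 (0.94), H2-Ob (0.94), Fcer2a (0.94) and Tnfrsf13c (0.93). Cxcr5 reached 0.93 and Cd79a 0.75 with Cxcl13. The mean of the 5 B cell genes was most like Ighv14-2 and Bank1 (both 0.99), Fcmr (0.99), Btla (0.98), H2-Oa (0.98), H2-DMb2 (0.98), Ighm (0.98) and Tnfrsf13c (0.98). The 36 pairs among the 9 genes had r between 0.75 and 0.99, with a median of 0.93. The 9 genes were chosen for their high signal in the small-intestinal tumour arrays, so high r among them follows in part from that choice. The 8 points share their arrays and MAS5 scaling, and these correlations are a description without a p.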

How the data were processed

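The authors deposited 1 table of MAS5 intensity values for the 8 arrays, on a linear scale with a trimmed mean of 500 per array. Per the submitters' processing notes, MAS5 and Partek were used, and no versions were given. Per the labels' protocols, RNA was isolated with Trizol and RNeasy, pooled, and amplified for hybridisation with a 3′ IVT Express kit. Probe sets with exactly 1 gene were kept, 64 controls were left out, and the probe set with the highest mean stood for a gene. Values were floored at 64.1, the median over arrays of the 40th percentile, and a gene was tested if at least 2 arrays exceeded that floor.

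All tests came from 1 limma model (limma 3.58.1, R 4.3.3) with 6 coefficients, namely a mean for each of 4 combinations of tissue and tumour presence, plus separate ACKR2 effects with and without tumours, which left 2 residual degrees of freedom. P-values were two-sided and Benjamini-Hochberg adjusted over 14023 genes. The procedure was tested on simulated data. The members and lists were chosen with earlier results of these data known. Up to 4 genes per list were named, the largest estimates among those past the threshold, and the 8 genes most like Cxcl13 and the B cell genes. Jchain, Igha, Irf4, Mzb1, Cd3d, Cd3e and the listed genes that did not pass or that only the filter singled out were named after their values were seen. The lists were other B cell, germinal centre, plasma cell, stroma and follicular dendritic cell, lymphotoxin pathway, homing, T cell, follicular helper T cell, dendritic and innate lymphoid cell, follicle-associated epithelium, epithelium and smooth muscle. Listed genes not analysed here include Ccl19, Ccl21a and Lck. Other settings changed the floor, filter, normalization, probe sets, model and arrays used. Gene positions are RefSeq's on GRCm38.p6.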

Additional observations from a re-analysis of the deposited data

Results flagged for a closer look

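On the probe set used, the tumour difference of 4 genes had opposite signs in the tissues, higher in both small-intestinal pairs and lower in both colon pairs. Between the tissues the log2 difference differed by 4.05 for Cxcl13 (3.47 in small intestine, -0.59 in colon), by 6.22 for Ms4a1 (4.61 and -1.61), by 3.69 for Cd22 (3.21 and -0.48) and by 3.89 for Cd79b (3.14 and -0.75). This difference was not tested, because the genes were chosen on their small-intestinal values. Cd22 was at only -0.056 in the ACKR2-deficient colon pair. Its second probe set, at the floor in all colon arrays, gave 0 in both colon pairs. The second Ms4a1 probe set gave 0 in the ACKR2-deficient and -0.063 in the ACKR2-intact colon pair. The second Cxcl13 probe set gave -0.26 and -0.40 there.

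Small intestine minus colon was positive in both tumour pairs and negative in both pairs without tumours for 4 genes. The log2 gap was 4.05 for Cxcl13, 3.25 for Ccr6, 6.22 for Ms4a1 and 3.69 for Cd22, and it was not tested for the same reason. It uses the same 8 arrays, so for a gene it is the same number as above. For Ms4a1 the pair without tumours was -0.0089 in WT mice, and its second probe set gave 0 in ACKR2-/- and 0.11 in WT mice. For Cd22 the second probe set, at the floor in these arrays, gave 0 in both pairs without tumours.

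On the probe set used, ACKR2 loss went with a higher signal in both tumour pairs and a lower signal in both pairs without tumours for Cxcl13, Ccr6 and Ms4a1. The second Cxcl13 probe set gave -0.27 in small intestine and 0.088 in colon without tumours. The second Ms4a1 probe set gave 1.11 in small-intestinal and 0 in colon tumours, and -0.17 and -0.063 without tumours. With median centring Cxcl13 was at 0.14 without tumours. On the probe set used, the effects differed by 0.80 for Cxcl13, 1.36 for Ccr6 and 2.26 for Ms4a1 on the log2 scale. The limma test of this difference, added after the data were seen, had adjusted p-values of 0.594, 0.568 and 0.549.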

How the results depend on the processing

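With each array left out in turn, the median log2 difference of the 9 genes ranged from 2.70 to 3.43 in small-intestinal tumours, from 2.95 to 3.76 for small-intestinal minus colon tumours and from -0.28 to 0 for small intestine minus colon without tumours. The counts of the 9 genes called in colon tumours and in both ACKR2 comparisons were then 0, as were the counts of other B cell genes called higher in small-intestinal tumours, in colon tumours and between tumours. The limma fit then has fewer residual degrees of freedom, and a lone array is assumed to vary like the other groups. Over the whole table the count of called genes was 557 in small-intestinal tumours, 0 without any 1 array and 18 without a filter on low genes, and in ACKR2-/- minus WT tissue it was 96, against 3781 with median centring and 427 with no floor.

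The 20 other B cell genes called higher in small-intestinal tumours became 13 with a floor at the 25th percentile and 1 without a filter. With a filter on all arrays, 10 of 10 tested were called. All genes called there, in either direction, were 508 of 16302, 18 of 18193 and 461 of 10655 in these 3 settings. The 24 called higher in small-intestinal over colon tumours became 1 without a filter and 9 of 10 with a filter on all arrays. Of all genes, 24 of 18193 and 1632 of 10655 were then called in either direction. In colon tumours the 1 of the 9 genes called, Ms4a1, became 0 with a floor at the 60th percentile and without a filter. The count was also 0 with the mean of probe sets and with 1 shared ACKR2 effect. Of all genes, 2800 of 11120, 87 of 18193, 2671 of 14063 and 3163 of 14023 were called in these settings, in that order. The filter on all arrays also gave 0, but left Ms4a1, above the floor in 7 arrays, out of the test. The 1 other B cell gene called higher there became 0 without a filter. Leaving out both WT or both ACKR2-/-ApcMin/+ arrays left 1 array for some combinations of tissue and tumour presence. Calls from those fits are not counted here. In ACKR2-/- minus WT tissue the 0 of 9 genes called became 3 with no floor (Cr2, Cd22, Cd79a) and 2 with median centring (Cd22, Cd79a). With a filter on all arrays, 3 of the 4 genes still tested were called (Ccr6, Cd22, Cd79b), and Cd79a was not tested. Of all genes, 427 of 14023 were called with no floor, 3781 of 14130 with median centring and 851 of 10655 with the filter on all arrays. The median of small-intestinal minus colon tumours moved from 3.40 to 2.68 with a floor at the 60th percentile and to 2.80 with the mean of probe sets. Without tumours it moved from -0.28 to -0.057 with a floor at the 60th percentile and to 0 without both WT arrays. The cause of these shifts was not tested.

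Signs turned in colon tumours without both WT arrays for Ccr6 (0.23), Cd22 (0.46), Cd79a (0.59) and Cd79b (0.14), and without both ACKR2-/-ApcMin/+ arrays for Cd22 (0.038). In ACKR2-/-ApcMin/+ minus ApcMin/+ tumours, 1 shared ACKR2 effect gave -0.012 for Cxcl13, -0.073 for Cxcr5, -0.48 for Ccr6, -0.39 for Ms4a1, -0.19 for Cr2 and -0.79 for Cd79b. No floor gave -0.78 for Cxcr5 and -0.017 for Cr2, the floor at the 25th percentile -0.023 for Cxcr5, and the floor at the 60th 0.16 for Cd79a. Quantile normalization gave 0.055 for Ccr7, median centring 0.052 for Ccr7 and 0.035 for Cd79a. With 1 array left out, Cd79a ranged from -0.83 without either small-intestinal tumour array to 0.33 without either colon tumour array, and Cd79b from -0.69 to 0.73 under the same 2 omissions. In ACKR2-/- minus WT tissue, median centring gave 0.14 for Cxcl13. Of 174 values of the 9 genes under other settings, 0 had the opposite sign in small-intestinal tumours, 0 in small-intestinal over colon tumours and 8 in small intestine over colon without tumours. Leaving out both WT and both ACKR2-/-ApcMin/+ arrays was chosen after seeing the data. No paired analysis was possible because each group had 1 array and no replicate number, while the model itself already sets both tissues of a genotype side by side.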
